A study of Mus musculus with 6 samples.

Results

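The genes that copy DNA were examined in C2C12, a line of mouse myoblasts that divide until they fuse into muscle fibers. The group comprised 49 genes chosen by name for their roles at the replication fork, in its licensing and in its nucleotide supply, and the symbol of each was found once among the 22375 rows of the deposited table. RNA-seq covered 3 libraries of a control group (CON) and 3 libraries of a group under cyclic stretch at 15% tension for 4 h (4H). Both groups were cells of the same line, the labels name no transgene, knockdown or drug in either, and whether the CON cells were kept on elastic plates is not given in the sources used here. The labels call the libraries replicate biosamples and do not say whether they came from separate cultures, so the p values measure the spread between these samples, which may be technical. The study stretched the cells to model in culture the load that mechanical ventilation puts on diaphragm muscle.

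Chromosome replication starts from origins that the origin recognition complex (ORC) marks. CDC6 and CDT1 then load the ring-shaped MCM2-7 helicase, geminin blocks reloading, and the DBF4-CDC7 kinase, CDC45 and the GINS complex switch the helicase on. DNA polymerases, the sliding clamp PCNA and ribonucleotide reductase, which makes deoxynucleotides, follow, and E2F transcription factors and cyclin E turn many of these genes on as a cell leaves G1. The genes are therefore high in dividing myoblasts and are shut down when myoblasts differentiate.

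All 49 genes had a mean of at least 0.5 FPKM, so each was tested. In the CON group their mean levels ran from 4.23 FPKM for Dna2 to 172 FPKM for Pcna, with a median of 27.7 FPKM. Most lay in the upper part of the table, with a median at percentile 74.0 of the mean FPKM of the 11593 genes tested. The replicates lay close together, with a coefficient of variation whose median over the 49 genes was 3.54% in the CON group and 3.96% in the 4H group.

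After 4 h of stretch 24 of the 49 genes were lower and 6 were higher at an adjusted p of at most 0.05 (limma on log2(FPKM + 0.5), Benjamini-Hochberg adjustment over all genes tested). Of all genes tested, 24.1% were lower and 22.6% were higher by the same rule. The median log2 fold change was -0.13 for the 49 genes and -0.01 for all genes tested. The changes were small. The lowest log2 fold change was -0.57 for Cdt1 and the highest was 0.54 for Rrm2, so none of the 49 reached the study's threshold for differential expression, an absolute log2 fold change of 1 with an adjusted p of at most 0.05, which 3.88% of all genes tested met. In limma 33 of the 49 (67.3%) had an unadjusted p under 0.05, as did 53.6% of all genes tested. Every 4H library lay below every CON library in 27 of the 49 genes and above them in 6, while 29.2% and 27.5% of all genes tested did so. A lower level in a bulk sample may come from fewer cells that express a gene or from less RNA per cell, and these cannot be told apart here. The falls were spread over the helicase, polymerase and clamp groups, and 3 of the 4 nucleotide supply genes went the other way, as the plot of all 49 genes by library shows.

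**Figure D1:**
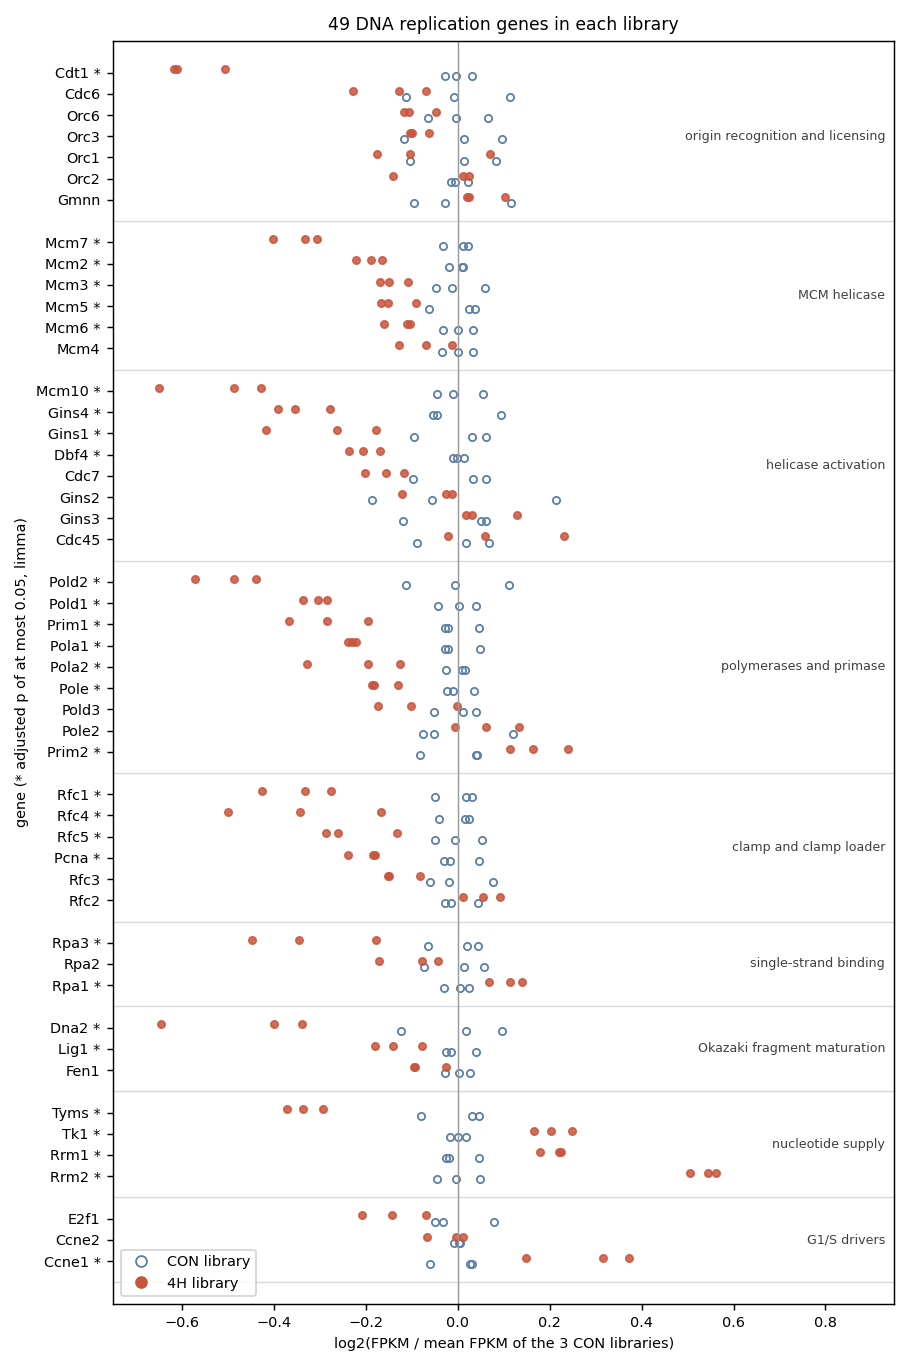
Each point is the FPKM of 1 library relative to the mean of the 3 CON libraries, on a log2 scale (x axis), for each of the 49 genes (y axis), grouped by role and sorted by log2 fold change, with open circles for CON and filled circles for 4H. The 4H points of Cdt1, Mcm10, Pold2 and Dna2 lie well to the left of their CON points, and those of Rrm2 lie furthest to the right.

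Promoter sequences were taken from RefSeq (GRCm38.p6) as 250 bases before and 50 bases from the start site, and 40 of the 49 genes had at least 1, giving 47 promoters. The E2F binding site was searched on both strands as TTTCCCGC, TTTGGCGC, TTTCGCGC or TTTGCCGC. It was found in 15 of these 47 promoters (31.9%), in 4.04% of the 11465 promoters of genes tested and in 2.26% of all 32851 promoters. The CCAAT box (CCAAT) was in 51.1% of the replication promoters, 37.9% of those of genes tested and 37.4% of all promoters. In the same order the shares were 70.2%, 63.8% and 35.7% for the GC box (GGGCGG), and 17.0%, 12.0% and 17.9% for the CHR element (TTTGAA). A match is a stretch of letters, and binding was not measured. Of the 15 genes with an E2F match, 8 fell and 0 rose, with a median log2 fold change of -0.13. Of the 25 genes without one, 13 fell and 5 rose, with a median of -0.19. The counts include E2f1, without a match, and Mcm7, with matches, whose RefSeq starts lie 466 and 539 bases inside the GENCODE M21 gene. The place of the start was compared with GENCODE M21 for only some of the genes.

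The promoters of the genes with the lowest and highest log2 fold changes past the test are shown 5' to 3' on the strand of the gene, together with that of Mcm6, which held 3 E2F matches and was added after its matches were seen. Capitals mark E2F matches. The Cdt1 window (chr8:122567765-122568064, plus strand) has a TTTGGCGC that begins 32 bases after the start site, and the Mcm6 window (chr1:128359656-128359955, minus strand) has matches that begin 110, 106 and 47 bases before it, the first pair overlapping in a joint run. The windows of Mcm10 (chr2:5012742-5013041, minus strand), Rrm2 (chr12:24708004-24708303, plus strand) and Ccne1 (chr7:38107441-38107740, minus strand) hold none of the searched E2F letters, which says nothing about the factor itself. That of Mcm10 ends in tttggcg, which is TTTGGCGC without its last letter, so a match across this edge could not be seen.
Cdt1: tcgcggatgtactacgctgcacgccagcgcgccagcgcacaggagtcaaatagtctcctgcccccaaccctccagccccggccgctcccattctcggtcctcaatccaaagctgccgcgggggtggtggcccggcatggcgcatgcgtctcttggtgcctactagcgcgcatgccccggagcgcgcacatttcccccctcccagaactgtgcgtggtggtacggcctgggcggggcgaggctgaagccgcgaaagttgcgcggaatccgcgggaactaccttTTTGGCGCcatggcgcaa
Mcm6: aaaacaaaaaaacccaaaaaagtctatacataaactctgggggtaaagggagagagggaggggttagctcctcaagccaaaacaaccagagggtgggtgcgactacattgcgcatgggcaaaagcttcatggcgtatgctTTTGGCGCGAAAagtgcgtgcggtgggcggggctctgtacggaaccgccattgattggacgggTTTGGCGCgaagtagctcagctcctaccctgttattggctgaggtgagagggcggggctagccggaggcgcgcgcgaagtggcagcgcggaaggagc
Mcm10: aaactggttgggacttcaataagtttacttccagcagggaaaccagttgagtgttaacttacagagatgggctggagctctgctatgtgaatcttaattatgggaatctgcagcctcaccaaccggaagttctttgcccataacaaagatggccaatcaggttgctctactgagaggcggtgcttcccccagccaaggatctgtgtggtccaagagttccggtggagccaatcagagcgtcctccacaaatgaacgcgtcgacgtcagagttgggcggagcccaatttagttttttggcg
Rrm2: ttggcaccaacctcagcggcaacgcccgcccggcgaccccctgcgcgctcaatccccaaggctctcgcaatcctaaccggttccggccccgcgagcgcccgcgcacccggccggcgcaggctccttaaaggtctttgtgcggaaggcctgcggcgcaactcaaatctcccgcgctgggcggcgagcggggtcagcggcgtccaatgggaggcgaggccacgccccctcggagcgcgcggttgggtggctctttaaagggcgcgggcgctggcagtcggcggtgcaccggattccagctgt
Ccne1: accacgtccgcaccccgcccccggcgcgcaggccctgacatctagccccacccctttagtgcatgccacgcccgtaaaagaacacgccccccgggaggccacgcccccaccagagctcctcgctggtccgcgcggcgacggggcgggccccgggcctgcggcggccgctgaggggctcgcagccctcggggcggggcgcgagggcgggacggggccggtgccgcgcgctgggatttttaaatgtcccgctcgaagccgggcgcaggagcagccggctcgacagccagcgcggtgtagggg
E2F letters thus occur beside the gene that fell most and beside a helicase gene that fell little. The GC box occurs in each of these windows, and CCAAT, on either strand, occurs 3 times in that of Mcm10, 2 times in that of Mcm6 and once in that of Rrm2.

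Among the 7 genes of origin recognition and licensing, 1 fell and 6 did not pass the test. The one was Cdt1 (ENSMUSG00000006585, chr8:122568015-122573554 in GENCODE M21, mm10), the factor that loads the helicase at origins and whose amount is normally kept low outside G1. Cdt1 was at 34.9, 33.5 and 34.0 FPKM in CON and 22.2, 24.0 and 22.4 FPKM in 4H. The groups lay far apart, with a mean 33.0% lower in the 4H group and a log2 fold change of -0.57 (SE 0.04, adjusted p = 2.27e-05 from limma), at percentile 4.56 of the fold changes of all genes tested. Its inhibitor geminin (Gmnn) was at 36.7, 42.4 and 38.4 FPKM in CON and 39.7, 39.8 and 42.1 FPKM in 4H, and these groups overlapped (log2 fold change 0.05, 95% interval -0.08 to 0.18). The ratio of Cdt1 to Gmnn within a library, which does not depend on library scaling, was 0.88 ± 0.08 in the CON group and 0.56 ± 0.04 in the 4H group (mean ± SD, n = 3).

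Cdc6, the other loading factor, averaged 8.91 ± 0.70 FPKM in CON and 8.09 ± 0.45 FPKM in 4H, and its groups overlapped (adjusted p = 0.183 from limma). The 4 ORC subunits among the 49, Orc1, Orc2, Orc3 and Orc6, had log2 fold changes between -0.09 and -0.03, with that of Orc2 at 0.00103 when libraries were rescaled to TPM, and none passed the test. Transcripts of another gene hold 25.1% of the 75-base stretches of Orc2, so its FPKM may hold reads of that gene. The other ORC subunits measured, Orc4 and Orc5, had log2 fold changes of 0.10 and 0.02 and did not pass it either (adjusted p = 0.204 and 0.857 from limma). Orc6 was the highest of the 4 in FPKM, with means of 85.3 ± 3.88 FPKM in CON and 80.2 ± 2.10 FPKM in 4H, while Orc1, the subunit whose level follows the cell cycle, was at 7.83 ± 0.51 and 7.48 ± 0.67 FPKM. Cdt1 was thus the only one of the 7 past the test, and the groups overlapped in the other 6.

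**Figure D2:**
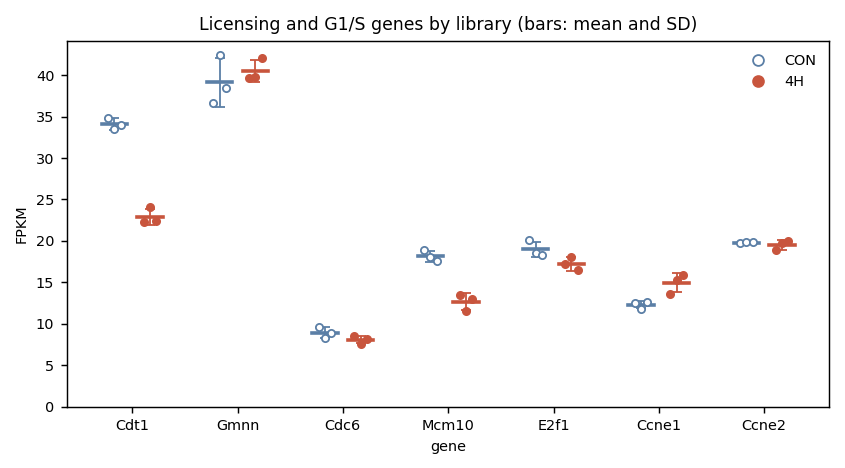
FPKM (y axis, from 0) of 7 genes of licensing, helicase activation and G1/S entry (x axis) in each library, with open circles for CON, filled circles for 4H, lines for means and error bars for the SD of 3 libraries. The CON and 4H points of Cdt1 and Mcm10 are well separated, those of Gmnn and Ccne2 overlap, and those of Ccne1 are higher in 4H.

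All 6 MCM2-7 genes had a negative log2 fold change, and 5 of them fell. These proteins form the hetero-hexameric ring that unwinds DNA ahead of the fork. Mcm7 was at 75.7, 76.3 and 73.5 FPKM in CON and 60.8, 59.7 and 56.9 FPKM in 4H, 21.4% lower in the mean (log2 fold change -0.34, SE 0.04, adjusted p = 0.00012 from limma). Mcm2 was at 58.4, 59.6 and 59.5 FPKM in CON and 51.9, 52.8 and 50.7 FPKM in 4H, 12.5% lower (log2 fold change -0.19, adjusted p = 0.00149). Neither gene had a 4H library within the range of its CON libraries.

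The other subunits moved less. Mcm3 was at 69.8, 66.4 and 64.8 FPKM in CON against 62.1, 59.5 and 60.3 FPKM in 4H, 9.44% lower. Mcm5 was at 54.0, 50.9 and 54.6 FPKM against 47.3, 49.9 and 47.9 FPKM, 9.03% lower. Mcm6 was at 81.9, 83.7 and 85.7 FPKM against 77.9, 77.6 and 74.9 FPKM, 8.35% lower. Their adjusted p values in limma were 0.0155, 0.0241 and 0.0134, and each of the 3 calls was lost when libraries were rescaled to TPM (0.0567, 0.0700 and 0.0531). Mcm4 was at 53.0, 51.9 and 50.6 FPKM in CON and 51.4, 49.4 and 47.5 FPKM in 4H, with overlapping groups (log2 fold change -0.07, 95% interval -0.16 to 0.02).

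FPKM is scaled by transcript length, and the levels of the subunits were set side by side on this scale. Other differences between genes in how reads are counted may remain, and the spread of replicates does not measure them. In the CON group Mcm6 was highest, followed by Mcm7, Mcm3, Mcm2, Mcm5 and Mcm4, and among neighbours in this order only Mcm5 and Mcm4 overlapped in their libraries. In the 4H group the order was Mcm6, Mcm3, Mcm7, Mcm2, Mcm4 and Mcm5, in which the neighbours Mcm3 and Mcm7, Mcm2 and Mcm4, and Mcm4 and Mcm5 overlapped. The ratio of Mcm7 to Mcm6 within a library was 0.90 ± 0.04 in the CON group and 0.77 ± 0.01 in the 4H group (n = 3). Exons of Mcm7 overlap those of Ap4m1, Cops6 and the microRNAs Mir25 and Mir93 in the GENCODE M21 annotation, and 13.2% of its 75-base stretches are found in transcripts of other genes, so its FPKM may hold reads of its neighbours. Whether these contribute to the fall of Mcm7 was not tested.

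**Figure D3:**
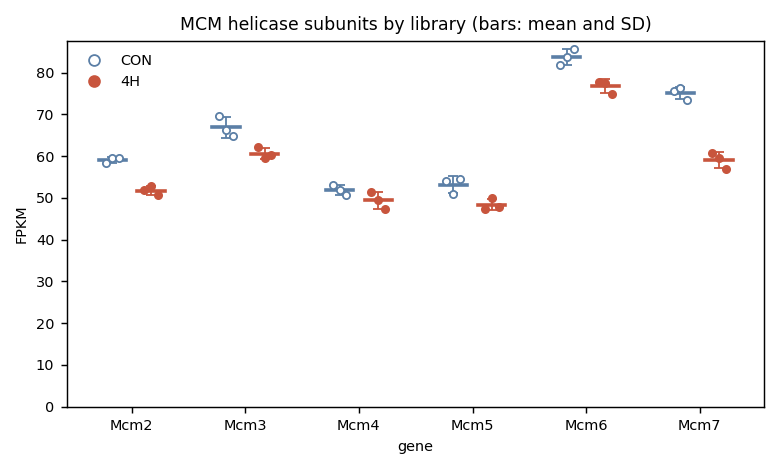
FPKM (y axis, from 0) of the 6 MCM helicase genes (x axis) in each library, with open circles for CON, filled circles for 4H, lines for means and error bars for the SD of 3 libraries. Every mean is lower in 4H, the gap is widest for Mcm7, and the points overlap for Mcm4.

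Of the 8 genes that turn the loaded helicase into a moving fork, 4 fell, 0 rose and 4 did not pass the test. Mcm10, which joins the helicase to the polymerases, was at 18.8, 18.0 and 17.6 FPKM in CON and 13.5, 11.6 and 13.0 FPKM in 4H. The mean was 30.2% lower without overlap (log2 fold change -0.50, SE 0.06, adjusted p = 0.000375 from limma). The GINS subunits, which bind the helicase as a tetramer, did not move together. Gins4 went from 29.2 ± 1.69 to 23.0 ± 0.92 FPKM (adjusted p = 0.00121, log2 fold change -0.33) and Gins1 from 17.2 ± 0.98 to 14.2 ± 1.18 FPKM (-0.27, adjusted p = 0.0139), a call that was at 0.0503 without CON replicate 1. Gins2 and Gins3 had log2 fold changes of -0.04 (95% interval -0.27 to 0.18) and 0.06 (-0.09 to 0.21), and 64.7% of the 75-base stretches of Gins2 are shared with Gse1 on the other strand. Dbf4, the activator of the CDC7 kinase, fell from 46.2 ± 0.39 to 40.1 ± 0.92 FPKM (adjusted p = 0.00151, log2 fold change -0.20). The kinase gene Cdc7 was lower in each 4H library than in any CON library but had an adjusted p of 0.0659, which was 0.0334 without CON replicate 3. Cdc45, the helicase cofactor, was at 25.0, 24.2 and 22.4 FPKM in CON and 23.5, 28.0 and 24.9 FPKM in 4H, which overlapped.

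Among the 9 genes of polymerases and primase 6 fell, 1 rose and 2 did not pass the test. The lowest value was in DNA polymerase delta, which copies the lagging strand. Its accessory subunit Pold2 was at 33.7, 31.3 and 36.6 FPKM in CON and 25.0, 24.1 and 22.8 FPKM in 4H, 29.2% lower (log2 fold change -0.49, SE 0.06, adjusted p = 0.000377 from limma). The catalytic subunit Pold1 was 19.2% lower (log2 fold change -0.30, adjusted p = 0.000932), and Pold3 had a log2 fold change of -0.09 with overlapping groups (adjusted p = 0.216). Pole, the catalytic subunit of the leading-strand polymerase epsilon, went from 17.9 ± 0.39 to 15.9 ± 0.36 FPKM (adjusted p = 0.0169, log2 fold change -0.16). The call of Pole was lost without CON replicate 1 (0.0580), 4H replicate 1 (0.0510) or 4H replicate 2 (0.0508). Its partner Pole2 was at 16.9 ± 1.27 and 17.7 ± 0.85 FPKM, which overlapped.

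Polymerase alpha and primase form 1 complex that lays down each primer. Its polymerase subunits Pola1 and Pola2 were 14.7% and 13.9% lower in the 4H group, and the catalytic primase subunit Prim1 was 17.7% lower (log2 fold change -0.28, adjusted p = 0.00197 from limma). The large primase subunit Prim2 was at 18.1, 19.8 and 19.7 FPKM in CON and 22.7, 20.8 and 21.5 FPKM in 4H. It was 12.7% higher without overlap (log2 fold change 0.17, adjusted p = 0.0316), and this call was lost without CON replicate 1 (0.0988), 4H replicate 1 (0.0988) or 4H replicate 3 (0.0664), with the replicate number as a block (0.0713) and without a trend (0.0505). The ratio of Prim2 to Prim1 was 0.40 ± 0.02 in the CON group and 0.55 ± 0.03 in the 4H group (n = 3), so the primase subunits moved apart.

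The sliding clamp and its loader fell in 4 of 6 genes, with 2 that did not pass the test. Pcna, the ring that tethers polymerases to DNA, was at 169.9, 177 and 168 FPKM in CON and 151, 152 and 145 FPKM in 4H. Its groups did not overlap, and the mean was 13.0% lower (log2 fold change -0.20, SE 0.03, adjusted p = 0.00123 from limma). Another gene holds 13.8% of its 75-base stretches. Of the replication factor C subunits that open the clamp, Rfc1 was 21.2% lower, Rfc4 20.5% lower and Rfc5 14.4% lower, with log2 fold changes of -0.34, -0.33 and -0.22. The 4H libraries of Rfc4 were spread out, at 29.6, 26.2 and 23.5 FPKM, although all lay below its lowest CON library. Rfc3 was lower in each 4H library than in any CON library with an adjusted p of 0.0615, which was 0.0470 without CON replicate 2. Rfc2 had a log2 fold change of 0.05 (95% interval -0.06 to 0.17), and other genes hold 13.9% of its 75-base stretches. Exons of Rfc2, Rfc4 and Rfc5 each overlap those of a gene on the other strand. The large subunit thus fell with Rfc4 and Rfc5, and Rfc2 and Rfc3 did not pass the test.

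Replication protein A, the heterotrimer that coats single-stranded DNA, was split. Its smallest subunit gene Rpa3 went from 24.7 ± 0.97 to 19.8 ± 1.89 FPKM (adjusted p = 0.00649 from limma, log2 fold change -0.32). Rpa2 was at 25.6 ± 1.17 and 23.9 ± 1.08 FPKM, and its groups overlapped. The largest subunit gene Rpa1 rose from 44.7 ± 0.87 to 48.1 ± 1.22 FPKM (adjusted p = 0.0374, log2 fold change 0.11), a call that held without 4H replicate 2 and was lost without each of the other libraries (0.0536 to 0.111). Among the genes that process Okazaki fragments, the nuclease-helicase gene Dna2 was at 3.89, 4.29 and 4.53 FPKM in CON and 3.35, 2.71 and 3.21 FPKM in 4H, 27.1% lower without overlap (log2 fold change -0.40, SE 0.10, adjusted p = 0.0114). Lig1, the ligase that seals the fragments, was 8.80% lower (adjusted p = 0.0301). Its call was kept with 1 library left out only without 4H replicate 1, and the other libraries gave 0.0515 to 0.0970. The call of Lig1 was also lost with TPM rescaling (0.101), quantile normalization (0.0888) and no trend (0.0601). The flap nuclease gene Fen1 had a log2 fold change of -0.07 (adjusted p = 0.155), and 73.7% of its 75-base stretches are shared with genes on the other strand.

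The nucleotide supply genes were the group that rose, with 3 of 4 higher and 1 lower. Ribonucleotide reductase turns ribonucleotides into deoxyribonucleotides, and its small subunit gene Rrm2 (ENSMUSG00000020649, chr12:24708241-24714146) was at 162, 168 and 157 FPKM in CON and 237, 239.7 and 230.4 FPKM in 4H. These groups were far apart, with a mean 45.1% higher in the 4H group (log2 fold change 0.54, SE 0.03, adjusted p = 5.46e-06 from limma), and Rrm2 passed Pcna as the most abundant of the 49. The large subunit gene Rrm1 was at 67.5, 70.9 and 67.8 FPKM in CON and 80.0, 80.3 and 77.8 FPKM in 4H, 15.5% higher (log2 fold change 0.21, adjusted p = 0.00122). Tk1, the thymidine kinase of the salvage pathway, was at 83.3, 84.4 and 82.3 FPKM in CON and 95.9, 98.9 and 93.5 FPKM in 4H, 15.3% higher (log2 fold change 0.20, adjusted p = 0.00104). None of these 3 genes overlapped between the groups.

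Tyms, the thymidylate synthase that makes dTMP de novo, went the other way. It was at 20.2, 21.8 and 22.0 FPKM in CON and 16.5, 16.9 and 17.4 FPKM in 4H, 20.7% lower (log2 fold change -0.32, SE 0.05, adjusted p = 0.000983 from limma). The routes to dTMP thus moved in opposite directions, and the ratio of Tk1 to Tyms within a library was 3.92 ± 0.20 in the CON group and 5.69 ± 0.27 in the 4H group (n = 3). The ratio of Rrm2 to Rrm1 was 2.36 ± 0.04 in the CON group and 2.97 ± 0.01 in the 4H group. For Rrm2 to Tyms it was 7.63 ± 0.44 and 13.9 ± 0.60.

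**Figure D4:**
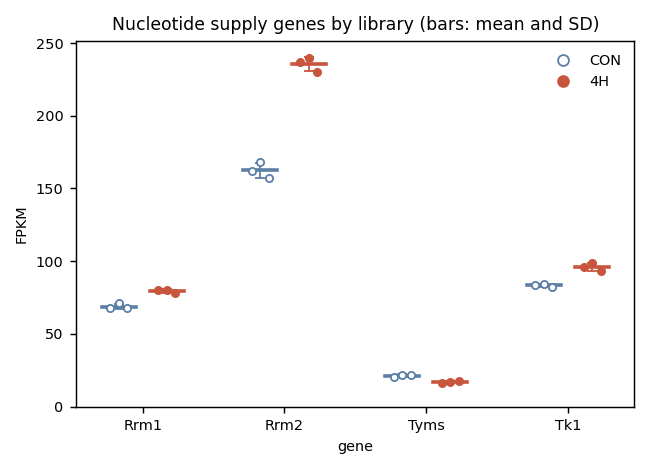
FPKM (y axis, from 0) of the 4 nucleotide supply genes (x axis) in each library, with open circles for CON, filled circles for 4H, lines for means and error bars for the SD of 3 libraries. Rrm1, Rrm2 and Tk1 are higher in every 4H library, and Tyms is lower in every 4H library.

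The 3 genes at the G1/S boundary did not share a direction. Ccne1 (ENSMUSG00000002068, chr7:38097984-38107534), which encodes cyclin E1, the partner of CDK2 at S phase entry, was at 12.5, 11.8 and 12.6 FPKM in CON and 13.6, 15.3 and 15.9 FPKM in 4H. It was 21.6% higher without overlap (log2 fold change 0.27, SE 0.07, adjusted p = 0.0110 from limma). Its paralog Ccne2 was at 19.7, 19.8 and 19.8 FPKM in CON and 18.9, 19.7 and 20.0 FPKM in 4H (log2 fold change -0.02, 95% interval -0.12 to 0.08, and 0.016 when rescaled to TPM), and 12.8% of its 75-base stretches are shared with Ints8 on the other strand. The ratio of Ccne1 to Ccne2 was 0.62 ± 0.02 in the CON group and 0.77 ± 0.04 in the 4H group (n = 3). E2f1, the transcription factor gene that itself answers to E2F, was at 20.1, 18.6 and 18.3 FPKM in CON and 17.2, 18.1 and 16.4 FPKM in 4H. Each 4H library was below each CON library, but the adjusted p was 0.0782 (log2 fold change -0.14, 95% interval -0.26 to -0.01).

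The 8 ratios computed here and further on, 1 of them with Pold4, were chosen after the values were seen. None had overlapping groups. Each had a two-sided exact permutation p = 0.1, which is the smallest that 3 against 3 libraries allow, and the Benjamini-Hochberg adjusted value was 0.1.

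A further 62 genes of replication, of the replication checkpoint and of its E2F control were compared in the same way. Of these 28 fell (45.2%), 5 rose (8.06%) and 29 did not pass the test, against 24.1% lower and 22.6% higher among all genes tested. The median log2 fold change was -0.13, as in the 49 genes. The lowest were Recql4, a helicase of origin firing, with means of 23.9 ± 1.05 FPKM in CON and 11.4 ± 0.47 FPKM in 4H (log2 fold change -1.03, SE 0.05, adjusted p = 2.27e-06 from limma), and Mtbp, a partner of the firing factor treslin, at 37.5 ± 0.43 and 25.0 ± 1.87 FPKM (adjusted p = 6.83e-05, log2 fold change -0.58). Recql4 was the only 1 of the 62 past the threshold for differential expression. The highest were Pold4, the smallest subunit of polymerase delta, which went from 43.1 ± 2.47 to 84.1 ± 3.92 FPKM (adjusted p = 3.08e-06, log2 fold change 0.96, SE 0.05), and E2f8, an atypical E2F that represses its targets, from 16.6 ± 0.63 to 25.8 ± 1.52 FPKM (adjusted p = 5.26e-05, log2 fold change 0.62).

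Pold4 thus moved against Pold1 and Pold2, and its ratio to Pold1 within a library went from 2.41 ± 0.21 to 5.81 ± 0.16 (n = 3). Polymerase epsilon subunits Pole3 and Pole4 were 18.1% and 18.2% lower, close to Pold1. These and the other genes of this paragraph were named after their values were seen. Several enzymes of the nucleotide pool moved against Rrm2. Rrm2b, the small reductase subunit that p53 induces, was 27.7% lower, Dut, which removes dUTP, 27.5% lower, Dctpp1, which clears other deoxynucleotides, 32.2% lower, and the deoxycytidine kinase gene Dck 17.8% lower, with adjusted p values of 0.00143, 0.00234, 0.000504 and 0.00461 from limma. Cdc25a, the phosphatase that activates CDK2, was 28.5% higher (adjusted p = 0.00523).

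The 30 genes of G2 and mitosis had a median log2 fold change of 0.02, with 7 that fell (23.3%), 8 that rose (26.7%) and 15 that did not pass the test, shares near those of all genes tested. Rescaled to TPM, 5 fell and 11 rose. The lowest were Ccnb2, a mitotic cyclin, at -0.51 on the log2 scale (adjusted p = 0.000154 from limma) and the centromeric histone Cenpa with -0.22 (adjusted p = 0.00241). At the other end were Ube2c, a ubiquitin-conjugating enzyme of the anaphase-promoting complex, with 0.41 (adjusted p = 4.14e-05) and Cdk1, the mitotic kinase, with 0.38 (adjusted p = 9.02e-05). Of the 49 replication genes 38 had a log2 fold change below 0, of the 30 mitotic genes 12 did, and of all 11593 genes tested 6045 did. Whether the lists differ was not tested.

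**Figure D5:**
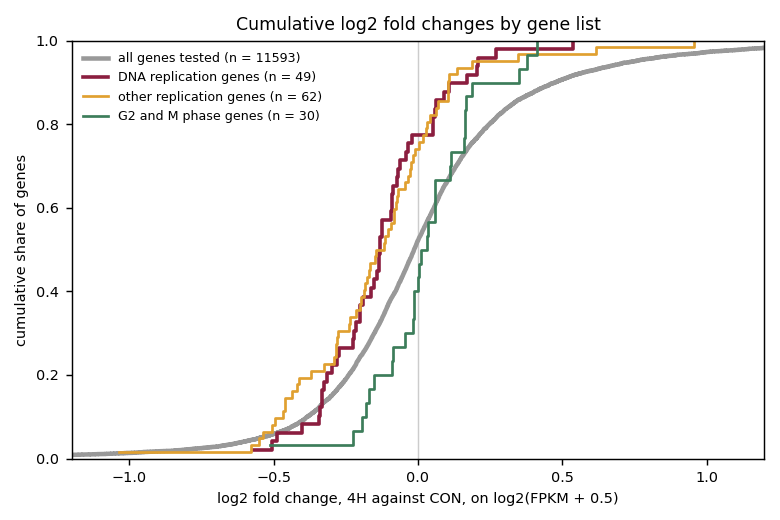
Cumulative share of genes (y axis) at or below each log2 fold change of 4H against CON (x axis) for all 11593 genes tested, the 49 DNA replication genes, the 62 other replication genes and the 30 G2 and M phase genes. The curves of both replication lists lie left of that of all genes around 0, with medians of -0.13, and that of the G2 and M phase genes has its median at 0.02, while the tails of all genes reach past 1 in size.

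Across the 49 genes, which share the same 6 libraries, the log2 fold change had a Spearman correlation of 0.07 with the mean level and of -0.05 with the length of the longest transcript. Exons of 16 of the 49 genes overlap those of another gene in GENCODE M21, 3 of them on the same strand. The libraries kept the strand, but whether the counting used it is not given in the sources used here. Among the 27 genes without such an overlap and with under 1% of 75-base stretches shared, 16 fell and 3 rose, with a median log2 fold change of -0.15.

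Myoblast markers were present, with all 6 above 0.5 FPKM in the mean, and their summed level, nearly all of it Vim, was 1921 to 1995 FPKM in CON and 2884 to 3111 FPKM in 4H. They did not move as one, since Myf5 fell from 15.8 ± 0.85 to 9.82 ± 1.13 FPKM while Myod1 rose from 5.13 ± 0.57 to 18.2 ± 0.74 FPKM and Vim, Des, Cdh15 and Msc also rose. Of 9 markers of differentiating muscle, 2 were above 0.5 FPKM, Mymx and Myh8 were listed at 0 in all libraries, and the sum was 1.93 to 2.51 FPKM in CON and 3.26 to 3.73 FPKM in 4H. Acta1, Mymk and Ttn had the higher values in 4H, whereas Myog averaged 0.217 and 0.026 FPKM in CON and 4H, and Ckm and Tnnc2 were listed at 0 in each 4H library. The leukocyte markers Ptprc and Adgre1 were listed at 0 in all libraries, while the sum of the 4 macrophage and leukocyte markers was 6.73 to 8.51 and 16.5 to 18.5 FPKM. The other two rose, Cd68 from 7.57 ± 0.89 to 16.4 ± 1.29 FPKM and Csf1r to 1.08 ± 0.36 FPKM from 0.0091 ± 0.016 FPKM. The 3 endothelial markers summed to 0.057 to 0.112 FPKM in CON and 0.147 to 0.261 FPKM in 4H, and the 2 epithelial markers, with Epcam at 0, to 0.0397 to 0.117 and 0.0732 to 0.194 FPKM. The sums did not overlap between the groups except for the epithelial markers, and their part in the falls and rises was not tested.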

How the data were processed

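RNA-seq of 3 CON and 3 4H libraries of C2C12 cells was compared, grouped by the labels. The authors deposited 1 table of FPKM values, scaled by transcript length and mapped fragments. The submitters' processing notes name the genome build mm10, while no aligner, counter or annotation is named (not given in the sources used here). FPKM holds no fragment counts. Ratios of values under 0.1 FPKM placed the relative depths of all library pairs within 1.58%, and no columns were identical. FPKM sums were 395790 to 397260 in the CON and 385146 to 387516 in the 4H libraries, and the precision of a value rests on 3 libraries.

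The 49 genes, the comparison lists and the motifs were chosen with earlier results of these data known. The study's own test needs counts, so limma 3.58.1 in R 4.3.3 (lmFit, eBayes with a trend) was fitted to log2(FPKM + 0.5) of the 11593 genes whose mean over the libraries was 0.5 FPKM or more, two-sided, with Benjamini-Hochberg adjustment and no replicate block. This scale understates changes of low genes. SE is limma's standard error. Values by library are given for the 5 lowest and 5 highest genes past the test, for Pcna, Mcm2 to Mcm7, Ccne1, Ccne2 and E2f1, and for others named after their values were seen (Gmnn, Cdc45, Tyms, Rfc4), and the 2 lowest and 2 highest genes past the test were named from each other list. The promoters of E2f1 and Mcm7 are not shown, since the RefSeq start lies 466 and 539 bases inside the GENCODE M21 gene. The fit was tested on simulated data. Python 3.11.15, pandas 2.3.3, SciPy 1.17.1 and matplotlib 3.10.9 made the tables and plots.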

Additional observations from a re-analysis of the deposited data

How the results depend on the processing

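The 16 alternatives were pseudocounts of 0.1 and 1, no filter, filters at a mean of 1 and 5 FPKM, TPM rescaling, median-of-ratios scaling, quantile normalization, a block for the replicate number (replicate block), no trend in limma, and each of the 6 libraries left out. Over them 20 to 25 of the 49 genes fell, 4 to 6 rose and 0 reached the threshold for differential expression. Of the 30 genes called, 22 kept their call in each alternative, 18 lower and 4 higher. The other 8, all with an adjusted p over 0.01, lost it in at least 1. The median log2 fold change of the 49 was -0.10 when rescaled to TPM, which raises the 4H libraries, whose FPKM sums are lower, and -0.15 to -0.11 with a library left out. The log2 fold change turned to 0.016 for Ccne2 and 0.00103 for Orc2 with TPM rescaling. With a library left out it ran from -0.035 to 0.00326 for Ccne2, from -0.125 to 0.063 for Gins2 and from -0.064 to 0.018 for Orc2, none of them called.

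With a library left out, Mcm3 was at an adjusted p of 0.0529 in limma without 4H replicate 2, and Mcm6 at 0.0514 without CON replicate 3. Mcm5 was at 0.0737 without CON replicate 1, 0.0828 without CON replicate 3, 0.0716 without 4H replicate 1 and 0.0667 without 4H replicate 3. Orc3 passed, at 0.0495, without CON replicate 2. Over the alternatives 4 to 7 of the G2 and M phase genes fell, with the fewest without 4H replicate 1, and 6 to 11 rose. Dna2 has no value with the filter at 5 FPKM. The number of all genes past the test ran from 4448 to 5565. Over all genes the balance turned from 2792 lower and 2617 higher to 2334 and 3140 with TPM rescaling and to 2598 and 2967 with no filter, while the median of all fold changes on the log2 scale went from -0.01 to 0.03 and 0.02. The replicate numbers did not pair the libraries, as deviations of same-numbered libraries from their group means correlated at 0.02, -0.09 and -0.13 across genes and not every library correlated best with its own number. These numbers, used in the block, come from the sample descriptions, while the titles number the 4H libraries 1, 3 and 4. By title number the shared pairs are 1 and 3, with correlations of 0.02 and 0.18, and the latter was the highest of any pair. With the replicate block 23 of the 49 fell and 4 rose, and Mcm5 (0.0591) and Rpa1 (0.0575) lost their call along with Prim2. FPKM keeps no counts, so the counting error of a value is unknown.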
